A study of Mus musculus with 12 samples.

Results

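Keratin genes encode the intermediate filament proteins of epithelial cells. The set comprised every row of the count table whose symbol is Krt followed by a number, which gave 52 of the 23337 rows. RNA sequencing counts were measured in 12 libraries of NU1, a line of normal mouse urothelial cells that became immortal on its own during passaging. The libraries form 4 groups of 3, and each group has 1 library from each of the experiments numbered 5, 7 and 9. Proliferating control cells carried the hairpin shNT (genotype label WT), and proliferating knockdown cells carried the lentiviral hairpin sh4 against Stag2, which encodes a cohesin subunit. Quiescent control and quiescent knockdown cells carried the same hairpins, were grown to confluence, were then given 1 µM rosiglitazone and 0.5 µM erlotinib, and were labelled differentiation day 7. Rosiglitazone is an agonist of PPAR gamma, a nuclear receptor, and erlotinib inhibits the kinase of the EGF receptor. All groups shared a medium with 15% chelated serum, 5 ng/ml EGF, 0.3 mM CaCl2, insulin, transferrin, thyroid hormone, hydrocortisone and cholera toxin. As a model the groups are limited to 1 cell line and 1 hairpin against Stag2, and confluence, time and the 2 added drugs changed together with quiescence, so their parts cannot be told apart. The experiments also carry different batch labels, and the labels do not say whether their libraries came from separate cultures, so p-values measure the spread between these libraries, which may be partly technical.

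Keratin filaments are built from pairs of an acidic type I and a basic type II keratin, and a keratin without a partner is degraded. In the bladder epithelium, Krt5 and Krt14 mark the basal layer, Krt8, Krt18, Krt19 and Krt7 are the keratins of simple and luminal cells, and Krt20 marks the superficial umbrella cells. Krt6a, Krt6b, Krt16 and Krt17 are induced in stressed or wounded stratified epithelia. Most other keratins belong to skin, oral mucosa, cornea or hair.

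By role, the 52 genes comprised 3 basal, 5 luminal or simple, 4 stress, 4 mucosal, 5 suprabasal epidermal, 8 other epithelial and 23 hair or root sheath keratins. Only 16 of them passed the filter on low counts and could be tested. The other 36 never exceeded 19 counts in a library (1.13 CPM, counts scaled to a common library total), and 13 of these had 0 counts in all 12 libraries. A count of 0 allows up to 3 counts, which is 0.136 to 0.207 CPM in these libraries. All 23 hair keratins were among the untested. Krt15, a basal keratin, reached 11 counts at most, the hair keratin Krt32 reached 19, and the hair keratin Krt36 reached 15. The stress keratins Krt6b and Krt17 reached at most 2 and 3 counts, and the mucosal keratin Krt13 reached 2.

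In the mouse genome (GRCm38, GENCODE M21 annotation), 27 of the keratin rows lie on chromosome 11, all of type I, and 23 lie on chromosome 15, of which 22 are of type II. The exception on chromosome 15 is the type I gene Krt18 at chr15:102028180-102032027 on the plus strand, 23697 bases from its usual partner Krt8 at chr15:101996698-102004482 on the minus strand. Of the type I cluster 10 genes reached at least 10 counts in a library, and of the type II cluster 8 did. Krt85 and Krt72-ps were not matched to the annotation. Stretches of 150 bases before transcription starts are shown for 3 genes, from RefSeq on GRCm38.p6 and written 5′ to 3′ on the gene's strand, for a basal keratin that fell with quiescence, the luminal keratin that fell with quiescence, and a luminal keratin that did not pass the test in control cells. The Krt5 stretch is chr15:101712906-101713055 (minus strand, bases -150 to -1 from the start), that of Krt20 is chr11:99438154-99438303 (minus strand, bases -150 to -1), and that of Krt18 is chr15:102028030-102028179 (plus strand, bases -186 to -37). Capitals mark a TATAAA match, which in Krt20 lies at bases -29 to -24.
Krt5: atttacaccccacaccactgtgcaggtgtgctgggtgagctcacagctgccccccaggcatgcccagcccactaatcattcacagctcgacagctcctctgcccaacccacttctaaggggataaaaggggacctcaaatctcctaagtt
Krt20: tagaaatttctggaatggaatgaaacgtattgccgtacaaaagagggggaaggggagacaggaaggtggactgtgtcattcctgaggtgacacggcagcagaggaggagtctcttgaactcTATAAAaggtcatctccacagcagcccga
Krt18: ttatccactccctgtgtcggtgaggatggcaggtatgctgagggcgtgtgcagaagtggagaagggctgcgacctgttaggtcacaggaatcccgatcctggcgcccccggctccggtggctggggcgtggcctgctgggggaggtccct
Over the 250 bases before the start, on both strands, TATAAA was present in 16 of the 34 keratin genes with such a window. That is 16 of 35 keratin windows, against 12.4% of all 32851 windows. Only Krt10, Krt12 and Krt20 of these genes were among the tested keratins, and the rest were mostly hair keratins with few or no counts. The AP-1 motif TGANTCA was found in 1 keratin gene (6.75% of all windows), the GC box GGGCGG in 2 (32.7%), the letters TTTGAA in 10 (15.99%) and the DR1 repeat of nuclear receptors in 0 (0.033%). Absence of a match says only that these letters are not in the window.

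Libraries held 14524429 to 21987539 counts. Stag2 was 133 CPM ± 17.4 (SD, n = 3) in proliferating control, 27.6 ± 4.96 in proliferating knockdown, 121 ± 11.3 in quiescent control and 12.1 ± 2.95 in quiescent knockdown cells. The proliferation marker Mki67 was 185, 225 and 190 CPM in proliferating control and 0.552, 6.24 and 7.93 CPM in quiescent control libraries of experiments 5, 7 and 9. It was 110, 192 and 264 CPM in proliferating knockdown and 5.49, 33.6 and 17.6 CPM in quiescent knockdown libraries. Of the markers of other cell types, those of fibroblasts summed to 0.345 to 2.27 CPM, smooth muscle to 0.173 to 0.716, immune cells to 1.61 to 9.42 and endothelium to at most 0.239 CPM in any library, against 9557 to 17948 CPM for the urothelial and epithelial list. That list includes Krt5, Krt14, Krt8, Krt18 and Krt20, and Krt8 and Krt18 held most of its sum in every library. The sum is therefore not separate from the keratin levels given below. Some defining urothelial markers were at or near 0. The basal regulator Trp63 had 0 counts in all 12 libraries, Upk3a had 1 count in all, and no uroplakin of the list exceeded 8.91 CPM.

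Luminal keratins made up almost all keratin mRNA in every group. Their share of the keratin counts per kilobase of transcript was 99.4% ± 0.147 (SD, n = 3) in proliferating control, 99.3% ± 0.207 in proliferating knockdown, 99.7% ± 0.0730 in quiescent control and 99.6% ± 0.0789 in quiescent knockdown cells. Basal keratins held 0.0984% ± 0.0149, 0.0762% ± 0.0110, 0.0105% ± 0.00368 and 0.0129% ± 0.00679 in the same order of groups. Stress keratins held 0.124% ± 0.0612, 0.154% ± 0.0980, 0.0988% ± 0.0314 and 0.145% ± 0.0314. The basal share was therefore lower in both quiescent groups, while the stress share had no such pattern. In bulk RNA, fewer cells of a kind and less RNA per cell cannot be told apart.

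Within the luminal set, the order of levels per kilobase in proliferating control cells was Krt18 (2631 CPM per kb ± 498), Krt8 (2350 ± 633), Krt19 (930.1 ± 268), Krt20 (635 ± 74.1) and Krt7 (610.5 ± 185). Krt18 and Krt8 did not differ beyond their spread on this scale, and neither did Krt20 and Krt7. The order depends on the length used, since divided by coding length it was Krt8 (3123 CPM per kb), Krt18 (2972), Krt7 (1819), Krt19 (1209) and Krt20 (944). In quiescent control cells the order was Krt8 (3015 ± 878), Krt18 (2978 ± 1053), Krt19 (1395 ± 365), Krt7 (406 ± 39.6) and Krt20 (323 ± 64.0). Krt8 and Krt18 again lay within their spread, and by coding length this order of the 5 genes was the same. Krt20 held 8.96% ± 1.57 (SD, n = 3) of keratin counts per kilobase in proliferating and 4.35% ± 2.23 in quiescent control cells, and Krt19 held 12.8% ± 1.64 and 17.3% ± 2.81. The ratio of type I to type II keratin counts per kilobase of transcript was 1.41 ± 0.0200 in proliferating control, 1.39 ± 0.0593 in proliferating knockdown, 1.36 ± 0.0237 in quiescent control and 1.33 ± 0.0116 in quiescent knockdown cells. Divided by coding length it was 1.03 ± 0.0694, 1.06 ± 0.0763, 1.07 ± 0.0503 and 1.08 ± 0.00707. The 2 scales gave opposite orders of the groups, and the ratio was above 1 in every group mean on both. By coding length the proliferating control library of experiment 7 was below 1, at 0.950. From counts not divided by length the group means were all below 1, at 0.904, 0.930, 0.927 and 0.927 in the same order. Whether type I exceeded type II therefore depends on the scale.

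**Figure D1:**
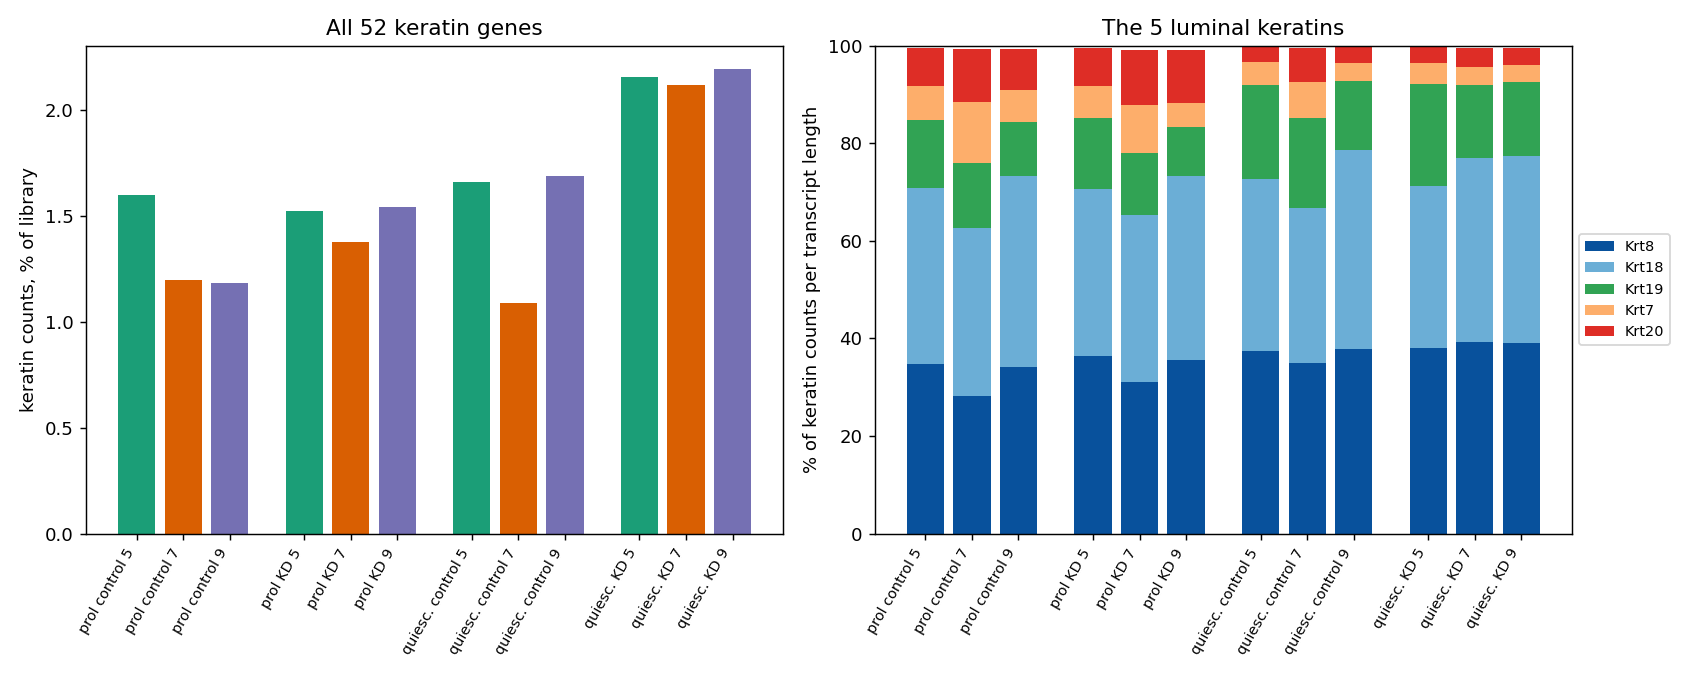
Left, all keratin counts as a percentage of the counts of each of the 12 libraries, with bars starting at 0 and coloured by experiment; right, the share of each luminal keratin in the keratin counts per kilobase of transcript. The 3 quiescent knockdown bars lie between 2.12% and 2.19%, above every other library, and the red Krt20 segment is smaller in quiescent than in proliferating libraries of the same experiment.

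Keratins as a whole took 1.60, 1.20 and 1.18% of library counts in proliferating control cells and 1.52, 1.38 and 1.54% in proliferating knockdown cells (experiments 5, 7 and 9). They took 1.66, 1.09 and 1.69% in quiescent control and 2.16, 2.12 and 2.19% in quiescent knockdown cells. All 3 quiescent knockdown libraries were above the other 9, and the quiescent control library of experiment 7 was the lowest of all 12.

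Entry into quiescence in control cells lowered both tested basal keratins, the luminal keratin Krt20, the mucosal keratin Krt4 and Krt79, and raised Krt42. That is 6 of the 16 tested keratins past the threshold of 0.05 for the Benjamini-Hochberg adjusted p of edgeR's quasi-likelihood test, against 20% of all 12406 genes tested. Split by direction, 1 was higher (background 8.33%) and 5 were lower (background 11.7%). Krt79, 1 of these 5, passed the filter on low counts only through proliferating libraries, as did Krt78. These counts therefore lean toward falls. The median log2 fold change of the 16 was -0.77, and that of all genes was 0.00. In knockdown cells 6 passed too (background 18.4%), of which Krt19 and Krt42 rose (background 7.59%) and Krt14, Krt5, Krt20 and Krt4 fell (background 10.8%), with a median of -0.40. With experiment as a block in the fit, 9 keratins passed in control cells (background 35.3%) and 11 in knockdown cells (background 33%). The comparisons in control and in knockdown cells share no library. They do share the 3 experiments and a fit that pools the spread over all 12 libraries, so they are not independent of each other.

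**Figure D2:**
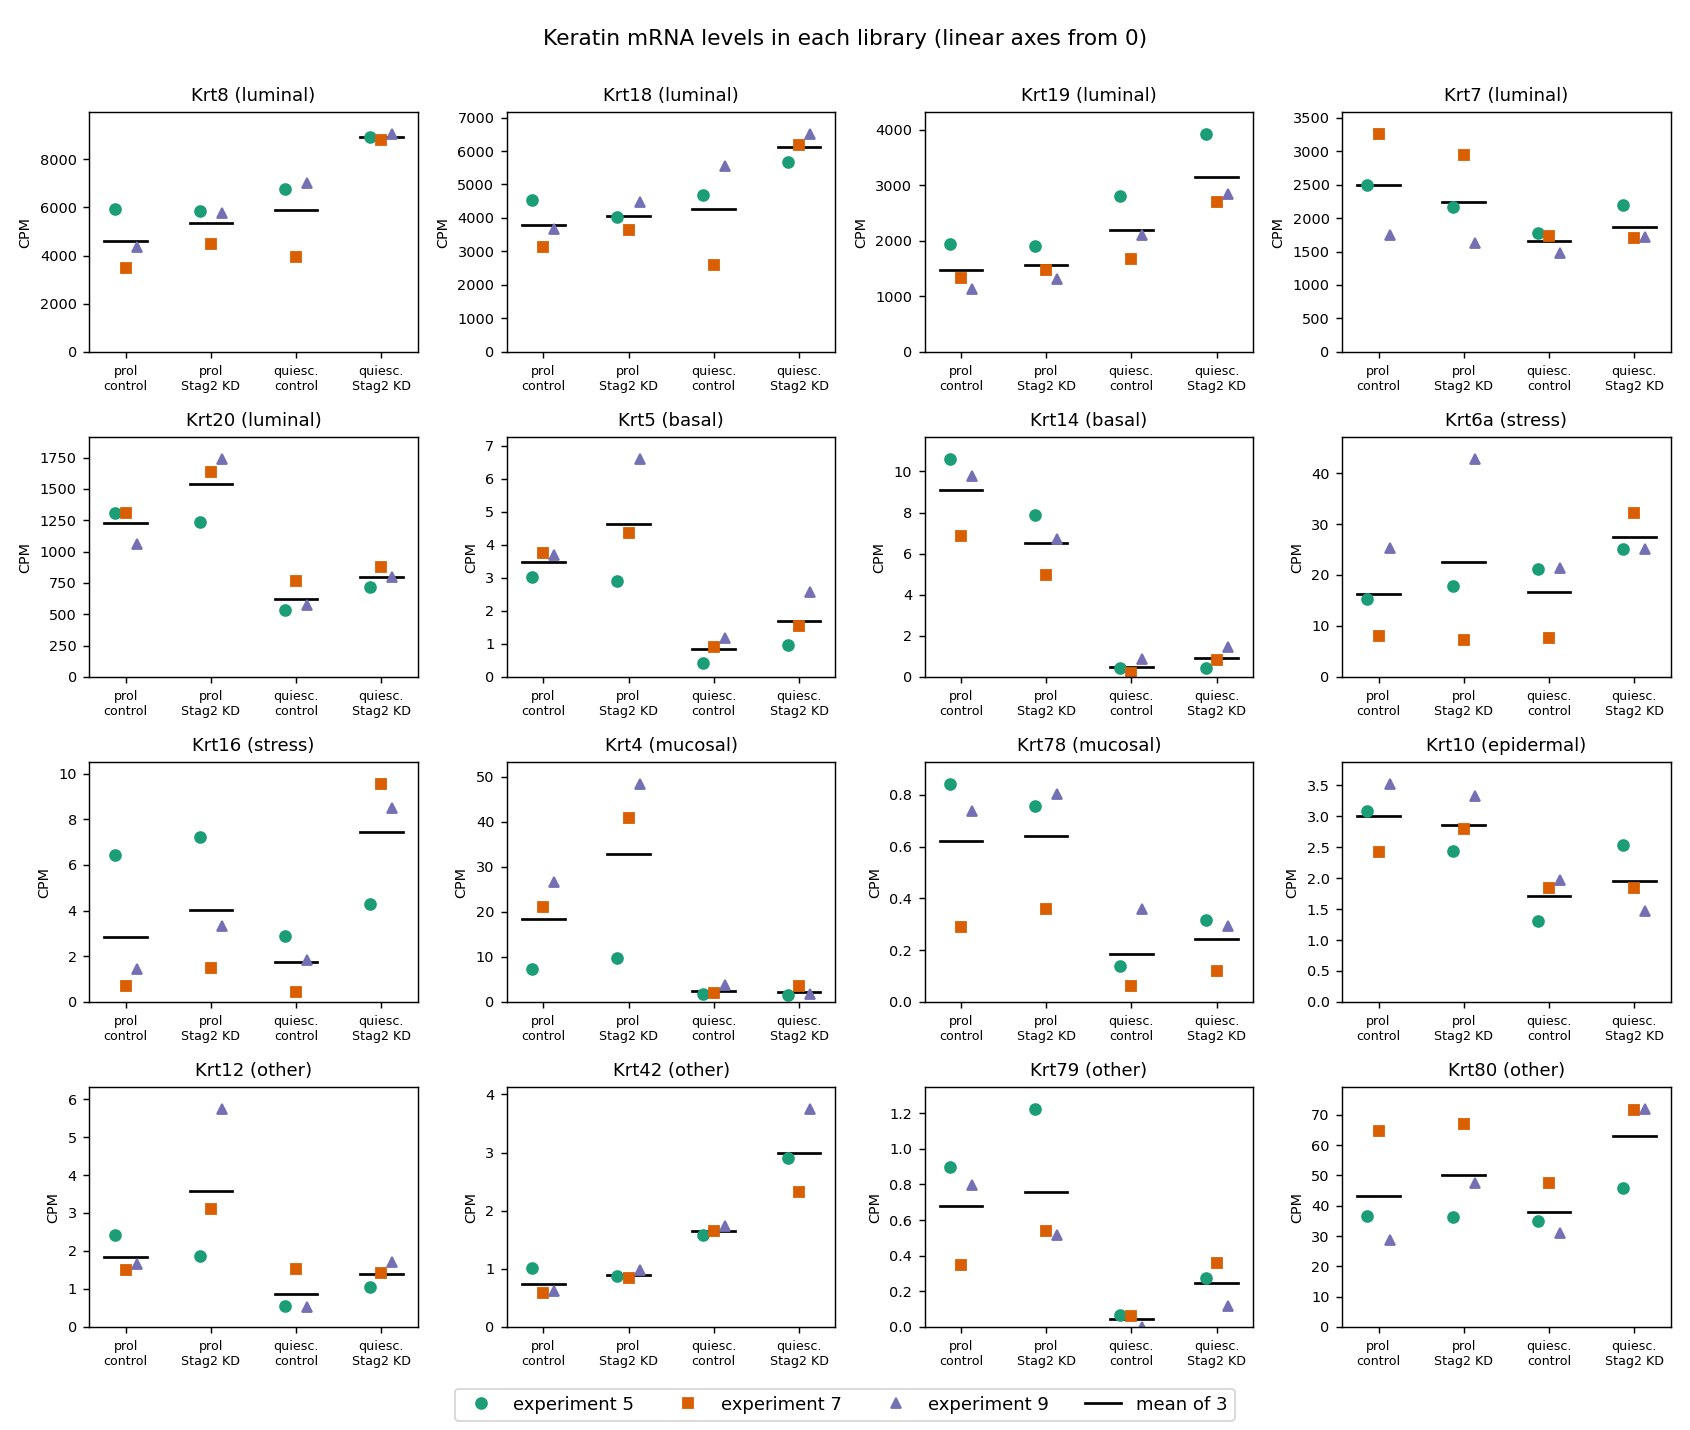
Each panel shows 1 of the 16 tested keratins in CPM on a linear axis from 0, with a point per library, its shape and colour giving the experiment, and a bar for the mean of 3. Krt14, Krt5, Krt4 and Krt20 are low in both quiescent groups with no overlap with the proliferating groups, and Krt8 is highest in the 3 quiescent knockdown libraries.

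Krt14, the type I keratin of basal cells, was 10.6, 6.87 and 9.77 CPM in proliferating control cells of experiments 5, 7 and 9. In quiescent control cells it was 0.414, 0.184 and 0.895 CPM, from 6, 3 and 15 counts. Every quiescent library lay below every proliferating one. The log2 fold change was -4.16 (SE 0.56, adjusted p by edgeR 0.000601), and within experiments the difference in log2 CPM was -4.34, -4.55 and -3.29. In knockdown cells Krt14 went from 7.87, 4.94 and 6.71 CPM to 0.408, 0.835 and 1.46 CPM, again without overlap (log2 fold change -2.86, SE 0.52, adjusted p by edgeR 0.00371). Of its 50-base words, 14.4% also occur in other genes, mostly Krt16, and how such reads were counted is not given in the sources used here.

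Krt5, the type II partner of Krt14, was 3.03, 3.75 and 3.69 CPM in proliferating and 0.414, 0.918 and 1.19 CPM in quiescent control cells. These groups did not overlap, and the log2 fold change was -2.03 (SE 0.48, adjusted p by edgeR 0.0130). Leaving out the quiescent control library of experiment 5 brought the adjusted p by edgeR to 0.0514. In knockdown cells Krt5 was 2.91, 4.35 and 6.60 CPM in proliferating and 0.952, 1.55 and 2.58 CPM in quiescent libraries, also without overlap (log2 fold change -1.45, SE 0.46, adjusted p by edgeR 0.0477). That call stood close to the threshold. It held in 4 of the 12 fits that left out a library, those without proliferating knockdown 5, quiescent control 5, quiescent control 9 or quiescent knockdown 9, and the largest adjusted p by edgeR was 0.171. With the block it was 0.00229. Of the 50-base words of Krt5, 8.52% also occur in other genes, mostly Krt6a, whose level was higher than that of Krt5 in every library. How such reads were counted is not given either. Antisense gene models overlap Krt5, Krt6a, Krt7, Krt8, Krt10, Krt12 and Krt80, and whether counting used strand is not given in the sources used here. Both tested basal keratins thus fell in control and in knockdown cells, and the third basal keratin, Krt15, had too few counts for a test.

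Krt20, the umbrella cell keratin, was 1305, 1307 and 1059 CPM in proliferating and 534, 763 and 570 CPM in quiescent control cells. No quiescent library reached the lowest proliferating one. The log2 fold change was -0.97 (SE 0.18, adjusted p by edgeR 0.00391), and the differences within experiments were -1.29, -0.78 and -0.89. In knockdown cells Krt20 was 1239, 1635 and 1738 CPM in proliferating and 715, 875 and 798 CPM in quiescent libraries (log2 fold change -0.95, SE 0.18, adjusted p by edgeR 0.00497). The groups were again apart. The call held in all 12 fits that left out a library, in both control and knockdown cells. The umbrella cell keratin therefore fell beside the basal keratins.

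Krt19, a small type I keratin without the usual tail domain, was 1938, 1334 and 1125 CPM in proliferating and 2812, 1672 and 2110 CPM in quiescent control cells. It was higher in the quiescent library of each experiment, but the groups overlapped across experiments, and the log2 fold change of 0.58 (SE 0.26) missed the threshold (adjusted p by edgeR 0.132). It passed with the block (adjusted p by edgeR 0.00828) and without the proliferating control library of experiment 5 (adjusted p by edgeR 0.0412). In knockdown cells Krt19 went from 1897, 1477 and 1316 CPM to 3922, 2691 and 2835 CPM, and it rose without overlap (log2 fold change 1.01, SE 0.26, adjusted p by edgeR 0.0210). The call was lost without proliferating knockdown 7, proliferating knockdown 9 or quiescent knockdown 5, with adjusted p by edgeR up to 0.0834. The rise in knockdown minus that in control cells was 0.43 (95% interval -0.37 to 1.22), so a difference between them was not shown.

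Krt8, the main type II keratin of simple epithelia, was 5939, 3493 and 4369 CPM in proliferating and 6760, 3924 and 7026 CPM in quiescent control cells. The groups overlapped (log2 fold change 0.36, SE 0.24, adjusted p by edgeR 0.322). With the knockdown it was 5828, 4496 and 5751 CPM in proliferating and 8910, 8775 and 9042 CPM in quiescent libraries. These groups were apart, but the log2 fold change of 0.73 (SE 0.25) had an adjusted p by edgeR of 0.0598. It passed with the block (adjusted p by edgeR 0.0111), by DESeq2 (adjusted p 0.0135) and without proliferating control 5 or quiescent control 7 (adjusted p by edgeR as low as 0.0264). The fits with such a call came from the same libraries and are no separate evidence. Of the 50-base words of Krt8, 26.9% occur in the pseudogene Krt8-ps.

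Krt18, the type I partner of Krt8, was 4542, 3121 and 3679 CPM in proliferating and 4676, 2607 and 5554 CPM in quiescent control cells, with overlap (log2 fold change 0.18, SE 0.25, adjusted p by edgeR 0.646). Krt18 in knockdown cells was 4035, 3641 and 4480 CPM in proliferating and 5685, 6188 and 6508 CPM in quiescent libraries. The latter were all higher, with a log2 fold change of 0.60 (SE 0.25, adjusted p by edgeR 0.117). The adjusted p by edgeR was 0.0431 with the block and 0.0345 without quiescent control 7. Krt7, a type II keratin of luminal and ductal cells, was 2496, 3257 and 1745 CPM in proliferating and 1784, 1728 and 1480 CPM in quiescent control cells. Its groups overlapped, and its log2 fold change of -0.59 (SE 0.25) had an adjusted p by edgeR of 0.124, or 0.0425 with the block. In knockdown cells its log2 fold change was -0.26 (SE 0.25, adjusted p by edgeR 0.504). The 5 luminal keratins thus did not move as one. In control cells 1 of 5 fell and 4 missed the threshold, and in knockdown cells 1 fell, 1 rose and 3 missed it.

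Of the stress keratins, neither of the 2 that could be tested passed in either comparison, without or with the block. Krt6a was 15.4, 7.97 and 25.3 CPM in proliferating and 21.2, 7.59 and 21.4 CPM in quiescent control cells (log2 fold change 0.04, 95% interval -1.25 to 1.34). Krt16, a type I partner of Krt6a, was 6.45, 0.693 and 1.42 CPM in proliferating and 2.90, 0.428 and 1.85 CPM in quiescent control cells (log2 fold change -0.73, 95% interval -2.61 to 1.14). In both genes experiment 7 had the lowest level in each of these 2 groups. In knockdown cells the log2 fold changes were 0.28 (95% interval -1.001 to 1.56) for Krt6a and 0.89 (95% interval -0.91 to 2.69) for Krt16. Krt6a shares 45.5% of its 50-base words with other genes, mostly Krt6b, and Krt16 shares 37.6%, mostly with Gm11597 and Krt14, so their counts are uncertain.

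Krt4, a type II keratin of moist stratified mucosa, was 7.24, 21.1 and 26.7 CPM in proliferating and 1.86, 1.96 and 3.70 CPM in quiescent control cells. The groups did not overlap, and Krt4 fell with a log2 fold change of -2.86 (SE 0.65, adjusted p by edgeR 0.0113). Without quiescent control 5 the adjusted p by edgeR was 0.0513. Knockdown cells showed a fall from 9.68, 40.8 and 48.4 CPM to 1.45, 3.64 and 1.70 CPM (log2 fold change -3.87, SE 0.68, adjusted p by edgeR 0.00312). Its proliferating level was lowest in experiment 5 in both control and knockdown cells. Its type I partner in mucosa, Krt13, was nearly absent. Krt78, the other mucosal keratin tested, had 15, 5 and 13 counts in proliferating and 2, 1 and 6 counts in quiescent control cells, and its adjusted p by edgeR was 0.107, or 0.0167 with the block. In knockdown cells it was 0.177, or 0.0310 with the block. Krt78 passed the filter on low counts only through proliferating libraries, so a rise could hardly have been seen.

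Krt42, an epithelial type I keratin, was 1.01, 0.577 and 0.625 CPM in proliferating and 1.59, 1.65 and 1.73 CPM in quiescent control cells. It rose without overlap (log2 fold change 1.16, SE 0.34, adjusted p by edgeR 0.0335). The call was lost without proliferating control 7 or 9 and without any 1 of the 3 quiescent control libraries, with adjusted p by edgeR up to 0.123. In knockdown cells it rose from 0.874, 0.834 and 0.976 CPM to 2.90, 2.33 and 3.75 CPM (log2 fold change 1.73, SE 0.33, adjusted p by edgeR 0.00508), and this call held in all 12 fits that left out a library. These levels rest on 10 to 64 counts per library.

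Krt79, a type II keratin of hair follicle and sebaceous gland ducts, had 16, 6 and 14 counts in proliferating and 1, 1 and 0 counts in quiescent control cells. The sums of 36 and 2 counts give a ratio of scaled levels of 16.2, with a 95% exact interval of 4.18 to 139 that covers counting error only. It fell by edgeR (adjusted p 0.00916), while its fitted fold change depends on the prior count. Krt79 passed the filter on low counts only through proliferating libraries, so the test could hardly have shown a rise. Its counts in knockdown cells were 21, 9 and 9 counts in proliferating and 6, 6 and 2 in quiescent libraries (log2 fold change -1.58, SE 0.64, adjusted p by edgeR 0.112, with the block 0.0473). Krt10, a suprabasal epidermal type I keratin, was 3.09, 2.42 and 3.52 CPM in proliferating and 1.31, 1.84 and 1.97 CPM in quiescent control cells, which did not overlap (adjusted p by edgeR 0.0904). In knockdown cells the log2 fold change of Krt10 was -0.55 (SE 0.31, adjusted p by edgeR 0.248). The differences in log2 CPM within experiments there were 0.05, -0.57 and -1.12. Krt12, the corneal type I keratin, had a log2 fold change of -1.08 (SE 0.52, adjusted p by edgeR 0.166) in control cells. In knockdown cells it was -1.36 (SE 0.51, adjusted p by edgeR 0.0853), passing with the block (adjusted p by edgeR 0.0481) and without proliferating knockdown 5 (adjusted p by edgeR 0.0491). Krt80, a type II keratin linked to desmosomes, had log2 fold changes of -0.20 (95% interval -0.89 to 0.50) in control and 0.33 (95% interval -0.37 to 1.02) in knockdown cells.

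**Figure D3:**
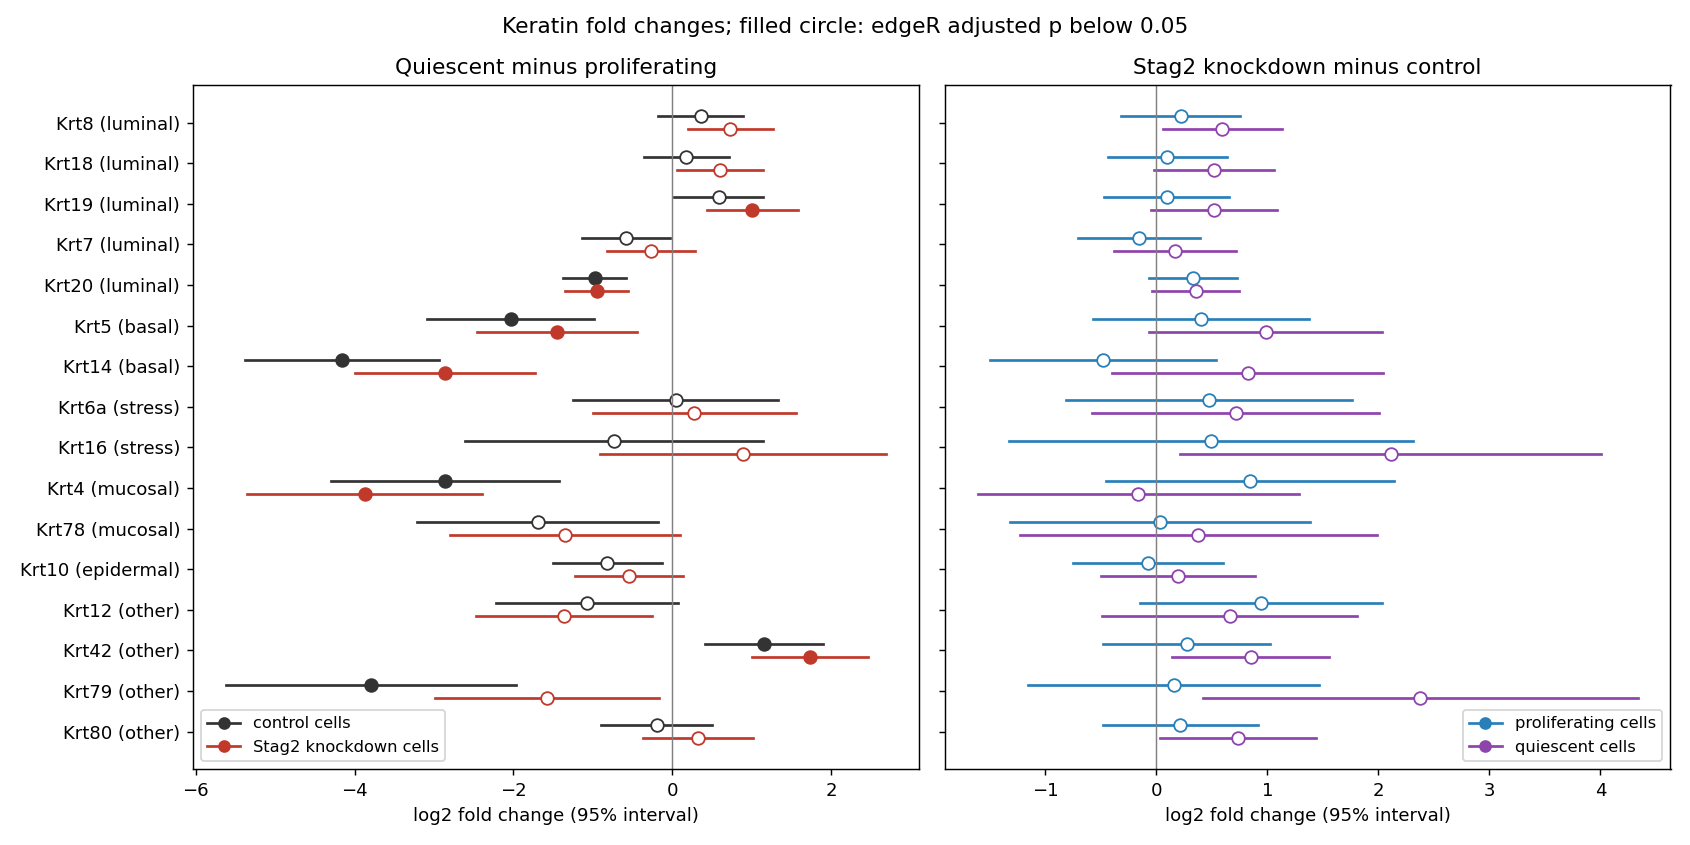
Log2 fold changes of the 16 tested keratins with 95% intervals, quiescent minus proliferating on the left and Stag2 knockdown minus control on the right; filled circles have an adjusted p by edgeR below 0.05. The left panel has 6 filled circles in control and 6 in knockdown cells, and the right panel has none.

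With Stag2 knocked down, no keratin passed the threshold in either state. In proliferating cells 0 of 16 passed in edgeR (background 0.0242%), 0 had an unadjusted p under 0.05 (background 1.84%), and 0 passed in DESeq2 (background 0.097%). The log2 fold change was positive for 13 of 16, against 49.5% of all genes, with a median of 0.22 beside -0.0022 for all genes. In quiescent cells 0 of 16 passed in edgeR (background 0.435%), also with the block (background 3.55%). An unadjusted p under 0.05 was reached by 5 (background 12%), and DESeq2 called 0 (background 3.21%), giving no adjusted p for Krt78 and Krt79. The log2 fold change there was positive for 15 of 16, against 52.5% of all genes, with a median of 0.63 beside 0.02 for all genes. The comparisons of knockdown and of quiescence share libraries, so these signs are not independent of those given above. Within a comparison the 16 genes come from the same libraries, so their signs are not independent of each other either.

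Among the luminal keratins, Krt8 in quiescent cells was 6760, 3924 and 7026 CPM in control and 8910, 8775 and 9042 CPM in knockdown libraries. All 3 knockdown libraries were above all 3 controls, with differences in log2 CPM of 0.40, 1.16 and 0.36 within experiments. The log2 fold change was 0.59 (95% interval 0.06 to 1.13, adjusted p by edgeR 0.364, with the block 0.0833), and without the quiescent control library of experiment 7 it was 0.37. Krt18 was higher in the knockdown library of each experiment by 0.28, 1.25 and 0.23 in log2 CPM, with a fold change of 0.52 on the log2 scale (95% interval -0.02 to 1.06, adjusted p by edgeR 0.443). Without the same library it was 0.26. For Krt19 the differences were 0.48, 0.69 and 0.43 (log2 fold change 0.52, 95% interval -0.05 to 1.08, adjusted p by edgeR 0.467, with the block 0.0651), and for Krt20 they were 0.42, 0.20 and 0.48 (log2 fold change 0.35, 95% interval -0.04 to 0.75, adjusted p by edgeR 0.481). Krt7 had differences of 0.30, -0.03 and 0.22. Mki67 was also higher in the quiescent knockdown library of each experiment, and its part in these values was not tested.

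In proliferating cells the luminal fold changes were closer to 0. Krt7 was lower in the knockdown library of each experiment, and Krt8, Krt18, Krt19 and Krt20 were lower in experiment 5 and higher in experiments 7 and 9. The log2 fold changes were 0.22 (95% interval -0.32 to 0.76) for Krt8, 0.10 (-0.44 to 0.64) for Krt18, 0.09 (-0.47 to 0.66) for Krt19, 0.33 (-0.07 to 0.72) for Krt20 and -0.15 (-0.71 to 0.40) for Krt7. These intervals include 0 and changes of up to the upper bounds given. Krt14 was lower in the proliferating knockdown library of each experiment, with differences of -0.42, -0.46 and -0.53 in log2 CPM and a 95% interval of the log2 fold change of -1.49 to 0.53. Krt4 was higher in each, by 0.41, 0.95 and 0.86 (95% interval -0.45 to 2.14).

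Of the basal keratins in quiescent cells, Krt5 was 0.414, 0.918 and 1.19 CPM in control and 0.952, 1.55 and 2.58 CPM in knockdown libraries. It was higher in the knockdown library of each experiment, by 1.01, 0.69 and 1.04 in log2 CPM, but the groups overlapped (log2 fold change 0.99, 95% interval -0.06 to 2.04, adjusted p by edgeR 0.457, with the block 0.102). Krt14 differed by -0.02, 1.67 and 0.65 (log2 fold change 0.83, 95% interval -0.40 to 2.05, adjusted p by edgeR 0.629). Krt14 rests on 3 to 25 counts per library in these groups.

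Of the stress keratins, Krt16 was 2.90, 0.428 and 1.85 CPM in quiescent control and 4.31, 9.54 and 8.50 CPM in quiescent knockdown libraries, which did not overlap. The differences in log2 CPM were 0.55, 4.15 and 2.13, and the log2 fold change of 2.11 (SE 0.86, 95% interval 0.22 to 4.01) had an adjusted p by edgeR of 0.360, with the block 0.0717. Krt6a was 21.2, 7.59 and 21.4 CPM in control and 25.1, 32.2 and 25.02 CPM in knockdown libraries, with differences of 0.24, 2.07 and 0.22 (log2 fold change 0.71, 95% interval -0.58 to 2.01, adjusted p by edgeR 0.708). As with Krt8 and Krt18, the largest difference was in experiment 7, whose quiescent control library was the lowest of the 3 for all 4 genes.

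**Figure D4:**
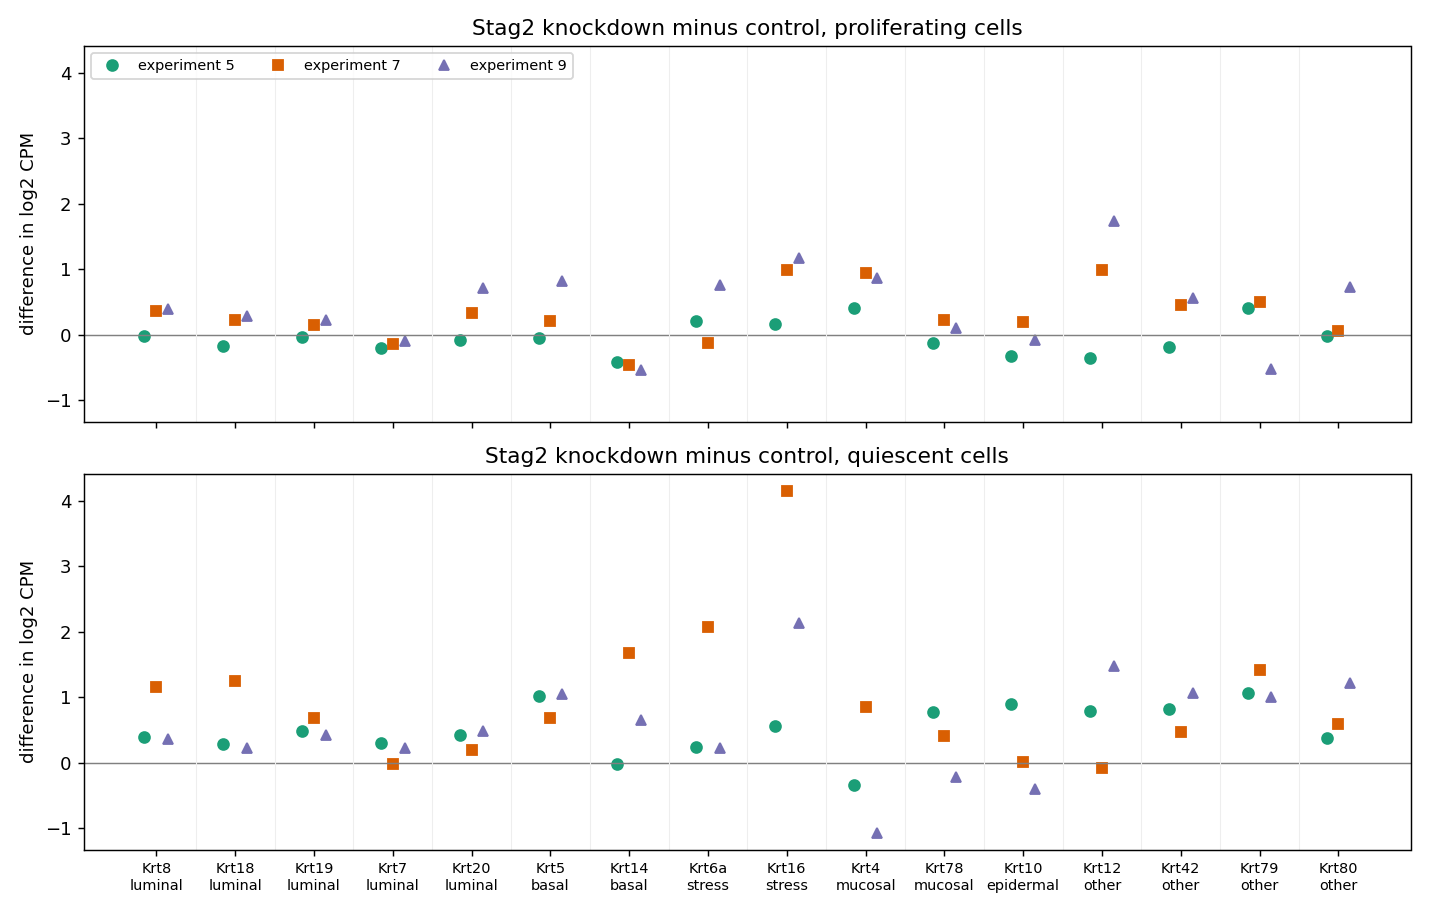
Differences in log2 CPM between knockdown and control libraries of the same experiment, for the 16 tested keratins in proliferating (top) and quiescent cells (bottom). In quiescent cells the experiment 7 points of Krt8, Krt18, Krt6a and Krt16 lie above the other 2 experiments, at 1.16, 1.25, 2.07 and 4.15.

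Of the remaining keratins in quiescent cells, Krt80 was 35.1, 47.4 and 31.01 CPM in control and 45.7, 71.6 and 72.0 CPM in knockdown libraries. It was higher in each experiment, by 0.38, 0.60 and 1.21 in log2 CPM (log2 fold change 0.74, 95% interval 0.04 to 1.44, adjusted p by edgeR 0.391, with the block 0.0654). Krt42 was higher by 0.83, 0.47 and 1.07 without overlap (log2 fold change 0.85, 95% interval 0.14 to 1.56, adjusted p by edgeR 0.319). Krt79 had 1, 1 and 0 counts in control and 6, 6 and 2 counts in knockdown libraries (adjusted p by edgeR 0.316). Krt10, Krt12, Krt4 and Krt78 changed sign between experiments. The differences in log2 CPM were 0.90, 0.01 and -0.40 for Krt10, and 0.79, -0.09 and 1.48 for Krt12. For Krt4 they were -0.34, 0.86 and -1.07, and for Krt78 they were 0.77, 0.41 and -0.21. The only negative log2 fold change of the 16 was that of Krt4, at -0.16 (95% interval -1.61 to 1.28). The untested Krt36 had 1, 1 and 0 counts in quiescent control and 10, 5 and 4 counts in quiescent knockdown libraries. The untested Krt32 had 1, 0 and 19 counts in control and 4, 1 and 11 in knockdown libraries. For the untested Krt15 these were 5, 2 and 8 and 7, 2 and 11 counts.

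The interaction term compared the knockdown effect between the states, quiescent minus proliferating. Of the 16 keratins, 0 passed in edgeR (background 0%), 0 had an unadjusted p under 0.05 (background 1.77%), and DESeq2 called 0 (background 0.0485%). The difference was positive for 14 of 16, against 51.5% of all genes, with a median of 0.40 beside 0.01 for all genes. The 16 genes come from the same libraries, so these signs are not independent of each other. For Krt14 it was 1.31 (95% interval -0.28 to 2.89), for Krt16 it was 1.62 (-0.98 to 4.22), for Krt8 it was 0.37 (-0.38 to 1.13) and for Krt20 it was 0.03 (-0.53 to 0.58). A keratin response to knockdown that differs between the states was therefore not shown, and the intervals leave room for sizeable ones.

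Among 22 genes of keratin partners (plakins, desmosomal linkers, hemidesmosome genes and a small heat shock protein), 21 were tested. In control cells 4 rose and 2 fell with quiescence, 6 of 21 against 20% of all genes, with a median log2 fold change of 0.02. Hspb1, a small heat shock protein that binds intermediate filaments, rose by 2.02 (adjusted p by edgeR 0.000446), and the plakins Eppk1 and Evpl rose by 1.83 (adjusted p by edgeR 0.0344) and 0.84 (adjusted p by edgeR 0.00953). Dsp, which anchors keratins at desmosomes, rose by 0.72 (adjusted p by edgeR 0.0185), while the desmosomal Pkp1 fell by 1.02 (adjusted p by edgeR 0.0286) and the keratin-binding adaptor Sfn fell by 1.43 (adjusted p by edgeR 0.00454). In knockdown cells 4 rose and 4 fell (8 of 21, background 18.4%), and the fallen ones included the hemidesmosome integrins Itgb4 (log2 fold change -0.89, adjusted p by edgeR 0.0410) and Itga6 (-0.85, adjusted p by edgeR 0.0330). For the knockdown itself 0 of the 21 passed by edgeR without the block, in proliferating (background 0.0242%) or quiescent cells (background 0.435%). An unadjusted p under 0.05 by edgeR was reached by 1 in proliferating (background 1.84%) and 3 in quiescent cells (background 12%). DESeq2 called 0 in proliferating (background 0.097%) and 1 in quiescent cells (background 3.21%). With the block, 1 passed for the knockdown in quiescent cells (background 3.55%), the hemidesmosome collagen Col17a1. It was 0.169 CPM ± 0.0946 (SD, n = 3, from 3, 1 and 4 counts) in quiescent control and 2.39 ± 1.53 in quiescent knockdown cells, with a log2 fold change of 3.78 (SE 0.77) and an adjusted p by edgeR of 0.0656 without and 0.00599 with the block. Col17a1 had at most 4 counts in any control library and passed the filter on low counts only through knockdown libraries. The test could therefore hardly have shown it lower with the knockdown. The block counts for quiescence were 9 of 21 in control (background 35.3%) and 14 of 21 in knockdown cells (background 33%).

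Of 25 transcription factors tied to keratin genes or urothelial identity, 23 were tested. In control cells 7 rose and 1 fell with quiescence, 8 of 23 against 20% of all genes, with a median log2 fold change of 0.37. With the block 10 of 23 passed there, against 35.3% of all genes. Gata3 rose by 1.47 (adjusted p by edgeR 0.0263), Zfp750 by 1.32 (0.0180), Elf3 by 1.27 (0.0443), Ehf by 1.14 (0.0390), Grhl1 by 1.12 (0.00284) and Sox9 by 0.89 (0.0125) on the log2 scale, adjusted p by edgeR in brackets. Runx1 fell by 1.18 (adjusted p by edgeR 0.00297). These are factors of epithelial differentiation, except that Runx1 and Sox9 also act in progenitor cells. The list was chosen for such roles, and 15 of the 23 did not pass in control cells. In knockdown cells 3 rose and 1 fell, a share of 4 in 23 that is near the 18.4% of all genes, and with the block 9 passed, near the background of 33%. Knockdown lowered 1 of the 23 in quiescent cells (background 0.435%), the retinoic acid receptor Rarg, from 95.9 CPM ± 1.38 (SD, n = 3) to 55.5 ± 2.49 (log2 fold change -0.79, SE 0.14, adjusted p by edgeR 0.0360). With the block 3 passed there (background 3.55%). Without it 5 had an unadjusted p under 0.05 by edgeR (background 12%), and DESeq2 called 3 (background 3.21%). In proliferating cells knockdown moved 0 of 23 by edgeR (background 0.0242%), with 1 at an unadjusted p under 0.05 (background 1.84%) and 0 by DESeq2 (background 0.097%).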

How the data were processed

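Per the labels' protocols, poly(A) RNA, from samples carrying ERCC spike-ins, was turned into stranded libraries. The authors deposited raw counts per gene symbol, whole numbers with no normalization, in 1 table of 23337 rows with 0 ERCC rows. Per the submitters' processing notes, Bowtie, TopHat, HTSeq, DESeq2 and build mm10 were used, with no versions given here. Neither the annotation nor whether counting used strand is given in the sources used here. Library totals were 14524429 to 21987539 counts. No replicate pair was identical or within sampling noise. Counting error and intervals from counts cover sampling only, since PCR reads are not independent molecules.

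Counts were tested in R 4.3.3 with edgeR 4.0.16: filterByExpr (minimum count 10, 12406 genes left), TMM scaling, and glmQLFit and glmQLFTest on 4 group means over 12 libraries (8 residual degrees of freedom). Adjusted p-values are Benjamini-Hochberg over the tested genes and called below 0.05. On simulated counts for quiescence in control cells (12286 genes, 200 changed), 48% of genes changed 2-fold and 82% of those changed 4-fold were recovered, with 9 false among 139 calls. The simulation had no effect of experiment, and it changed a smaller share of genes than the 20% called in the data. Its rates therefore need not hold for the data. Levels are CPM over TMM-adjusted totals (prior count 2 for log2 CPM). Levels were divided by the longest GENCODE M21 transcript that is paired with a RefSeq mRNA, not by the longest RefSeq transcript as first planned. The experiment number pairs libraries, since the labels give each experiment its own batch, and deviations from group means correlated between libraries of the same number (mean r 0.526 over 18 pairs, 0.225 to 0.789). The mean over 36 other pairs was -0.259. Deviations within a group sum to 0, so that value follows from the other mean and is no separate evidence.

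All rows matching the symbol rule are members. Tested ones are each described, untested ones are named with 10 or more counts in a library, and at most 8 genes past the threshold are named per partner and regulator list, largest change first. Col17a1, Krt6b, Krt13, Krt17, Krt72-ps, Krt85, Mki67, Trp63 and Upk3a are named beyond this rule, after their values were seen. The members and lists were chosen with earlier results of these data known. Alternatives were a replicate block, DESeq2 1.42.0, its median-of-ratios scaling in edgeR, no filter, a mean count of at least 50, only the libraries of a contrast, each library left out, coding length, and counts not divided by length. Sequence words shared between genes were 50 bases long.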

Additional observations from a re-analysis of the deposited data

How the results depend on the processing

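With experiment as a replicate block, which the shared experiment numbers allow, 11 keratins passed for quiescence in knockdown cells in place of 6; the block left knockdown and interaction counts at 0 and gave 9 for quiescence in control cells. With a mean count of at least 50, which left 10 keratins tested, 3 passed for quiescence in control cells. Krt5, Krt42 and Krt79, which passed in the main fit, had lower mean counts and were not tested there. Leaving out 1 library gave 3 to 8 keratins there (3 without quiescent control 5, where Krt14, Krt20 and Krt79 passed; 8 without proliferating control 5, where Krt36 entered the test) and 4 to 7 for quiescence in knockdown cells. For the interaction, no fit to only the libraries of the contrast exists, since it uses all 12. Divided by coding length, levels in proliferating and quiescent control cells were 1819 and 1211 CPM per kb for Krt7, 3123 and 4008 for Krt8, 1209 and 1813 for Krt19, and 944 and 480 for Krt20, which puts Krt7 above Krt19 and Krt20 in proliferating cells. By counts not divided by length, the luminal share was 99.2%, 99.5% and 99.5% in proliferating control, quiescent control and quiescent knockdown cells. Over single keratins and contrasts, fits that left out a library kept direction and call in 898 cases, lost a call in 18, gained one in 5 and turned the direction in 39, none of them past the threshold. Other settings kept 410, gained 11 and lost 5 calls, and turned 0. The ranges of log2 fold changes that turned were, for knockdown in proliferating cells, Krt10 -0.21 to 0.052, Krt16 -0.25 to 1.92, Krt18 -0.022 to 0.25, Krt19 -0.072 to 0.35, Krt6a -0.38 to 0.95, Krt7 -0.40 to 0.082, Krt78 -0.30 to 0.32, Krt79 -0.37 to 0.41 and Krt80 -0.049 to 0.62. For knockdown in quiescent cells they were Krt10 -0.045 to 0.36, Krt4 -0.68 to 0.23 and Krt78 -0.037 to 1.27. For quiescence they were Krt16 -1.30 to 0.70, Krt18 -0.054 to 0.45, Krt6a -0.29 to 0.52 and Krt80 -0.42 to 0.21 in control cells and Krt6a -0.14 to 1.13 in knockdown cells. For the interaction they were Krt12 -0.59 to 0.39, Krt20 -0.11 to 0.19, Krt6a -0.24 to 1.09 and Krt78 -0.074 to 1.23. Unless stated, the cause was not tested. Counts were low for Krt5, Krt12, Krt14, Krt42, Krt78 and Krt79, which limits their precision.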
